A study of Homo sapiens with 19 samples.

Results

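The promoters described here belong to protein-coding genes whose start lies in DNA with few CpG dinucleotides. They were chosen from sequence and annotation alone, without any ChIP-seq value. In the GENCODE release 44 annotation of hg38, the 5′ end of each protein-coding gene on chromosomes 1 to 22 and X was taken, and ends with another protein-coding 5′ end within 1 kb were left out. The CpG ratio, the observed number of CpGs over the number expected from the C and G content, was computed in a window of 500 bp on each side of the 5′ end. Of 16492 such single-gene promoters, out of 19970 protein-coding 5′ ends, 5505 had a ratio below 0.4 and are called CpG-poor. A further 9087 had a ratio of 0.6 or above and are called CpG-rich, and 1900 lay in between.

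The histone mark H3K27ac, acetylated lysine 27 of histone H3, was read at these promoters in 4 human leukaemia lines. It was taken from ChIP-seq (chromatin immunoprecipitation followed by sequencing) peak lists, and transcription from the promoters was not examined here. K562 comes from chronic myeloid leukaemia in blast crisis, and the other 3 lines, HL-60, Molm13 and OCI-AML3, come from acute myeloid leukaemia (AML). HL-60 and Molm13 cells were untransduced, whereas OCI-AML3 and K562 cells carried lentiviral dCas9-KRAB, a repressor driven by the SFFV promoter, with an empty sgRNA vector. Vector and line cannot be told apart. Each line was represented by 1 library with no replicate, and its sequencing depth was unknown. On chromosomes 1 to 22 and X, the HL-60 list held 20733 peaks, that of Molm13 35069, that of OCI-AML3 37531 and that of K562 37424. The HL-60 list was the shortest, which bears on every share given for that line. ChIP was done on bulk cells, in which fewer cells with the mark and less of the mark per cell cannot be told apart. A promoter is called marked in a line when at least 1 bp of its window lay in an H3K27ac peak, and no test between lines was possible.

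Most vertebrate promoters of widely used genes sit in CpG islands, stretches in which CpGs are kept free of DNA methylation and which are bound by general transcription factors in nearly every cell type. Promoters outside islands are typically used in few cell types. Many carry a TATA box and depend on factors of a lineage, such as PU.1 (encoded by SPI1) and C/EBP proteins in granulocytes and monocytes or GATA1 and KLF1 in red cell precursors. H3K27ac is deposited by the acetyltransferases p300 and CBP at active promoters and enhancers.

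The sequences of 7 CpG-poor promoters show how sparse CpGs are at such starts. Each run of 140 bases in hg38 reads 5′ to 3′ along the gene, from 120 bases before the annotated 5′ end to 20 bases into the transcript, with the CpGs in capitals. The first 3 lines are granule protein genes marked in the AML lines and not in K562.
MPO, chr17:58280916-58281055, minus strand: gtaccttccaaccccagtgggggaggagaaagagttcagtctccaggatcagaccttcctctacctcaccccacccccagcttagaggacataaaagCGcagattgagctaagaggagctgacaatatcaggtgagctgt
CTSG, chr14:24576231-24576370, minus strand: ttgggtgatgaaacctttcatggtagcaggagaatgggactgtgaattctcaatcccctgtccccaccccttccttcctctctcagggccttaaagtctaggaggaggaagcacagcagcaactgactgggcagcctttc
PRTN3, chr19:840879-841018, plus strand: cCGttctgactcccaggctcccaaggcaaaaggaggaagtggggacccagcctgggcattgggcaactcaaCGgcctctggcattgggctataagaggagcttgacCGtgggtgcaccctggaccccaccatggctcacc
The next 2 lines are erythroid genes marked in K562 alone.
RHAG, chr6:49636820-49636959, minus strand: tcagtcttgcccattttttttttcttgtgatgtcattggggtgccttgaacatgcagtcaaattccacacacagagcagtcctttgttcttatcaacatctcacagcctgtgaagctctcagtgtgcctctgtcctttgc
ALAS2, chrX:55030958-55031097, minus strand: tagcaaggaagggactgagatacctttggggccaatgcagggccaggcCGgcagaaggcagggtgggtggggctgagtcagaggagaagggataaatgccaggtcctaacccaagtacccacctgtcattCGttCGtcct
LAPTM5 was marked in all 4 lines, and the 5′ end of ALB, the albumin gene of hepatocytes, annotated 7173 bp from its canonical start, in none.
LAPTM5, chr1:30757755-30757894, minus strand: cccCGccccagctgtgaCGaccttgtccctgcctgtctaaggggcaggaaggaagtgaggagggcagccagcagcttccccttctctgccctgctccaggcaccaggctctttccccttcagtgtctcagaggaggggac
ALB, chr4:73396994-73397133, plus strand: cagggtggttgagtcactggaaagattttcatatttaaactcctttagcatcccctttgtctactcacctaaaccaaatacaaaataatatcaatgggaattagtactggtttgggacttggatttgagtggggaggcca
For comparison, CEBPA encodes a granulocyte regulator from a CpG-rich promoter.
CEBPA, chr19:33302515-33302654, minus strand: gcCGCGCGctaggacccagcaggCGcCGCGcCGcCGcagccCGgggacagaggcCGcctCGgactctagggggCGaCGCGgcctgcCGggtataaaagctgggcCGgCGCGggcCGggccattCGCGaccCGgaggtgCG
The run of CTSG, like those of RHAG and ALB, held 0 CpGs, that of MPO held 1, that of LAPTM5 held 2 and those of PRTN3 and ALAS2 held 3, against 23 in CEBPA. Over the whole window, ALB had 4 CpGs, CTSG and RHAG 6 each, MPO 8, ALAS2 9, LAPTM5 22 and PRTN3 28. CEBPA had 140, above the median of 80 at CpG-rich promoters.

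Across all 5505 CpG-poor promoters the median ratio was 0.216, with a median of 12 CpGs per window (quartiles 7 and 18), and 10 windows held no CpG at all. CpG-rich promoters had a median ratio of 0.797 and 80 CpGs. The GC content also differed, with a median of 47.3% at CpG-poor and 64.1% at CpG-rich promoters. The member nearest below the limit was S100PBP, at a ratio of 0.3999, and the nearest promoter above it was DENND1C, at 0.400133; the former was marked in all 4 lines and the latter in the 3 AML lines.

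Few CpG-poor promoters carried H3K27ac. In HL-60, 339 were marked, a share of 6.16% (Wilson 95% interval over promoters, 5.55 to 6.82%), against 31.7% of all single-gene promoters. Molm13 marked 663 of them, or 12.04% (11.2 to 12.9%), where 40.4% of all single-gene promoters were marked. In OCI-AML3 the number was 699, or 12.7% (11.8 to 13.6%), against 44.6% of all. K562 marked 690, or 12.5% (11.7 to 13.4%), against 43.1% of all. The 3 longer lists thus gave nearly equal shares of CpG-poor promoters, although they differed at CpG-rich ones. Promoters are not replicates, and these intervals cover counting error only.

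Of CpG-rich promoters, HL-60 marked 49.5%, Molm13 60.01%, OCI-AML3 66.4% and K562 63.7%. The difference from CpG-poor promoters was 43.4 percentage points in HL-60 (Newcombe 95% interval 42.1 to 44.5), 48.0 in Molm13 (46.6 to 49.3), 53.7 in OCI-AML3 (52.4 to 54.99) and 51.1 in K562 (49.8 to 52.4). All 4 intervals lay far from 0. As a ratio, the CpG-rich share was 8.04 times the CpG-poor share in HL-60 and between 4.98 and 5.23 times in the other lines. CpG-poor promoters made up 6.48% of all marked single-gene promoters in HL-60 and 9.5% to 9.94% in the others.

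The share followed the CpG ratio within the CpG-poor group too. Of the 474 promoters with a ratio below 0.1, HL-60 marked 2.95%, Molm13 5.49%, OCI-AML3 6.33% and K562 6.75%. Among the 1168 promoters with a ratio from 0.3 to below 0.4, the shares were 9.76%, 17.4%, 18.2% and 18.8%, in the same order of lines. In each line the share increased from bin to bin up to a ratio of 0.8, as the plot by CpG ratio shows. The steps between neighbouring bins were largest above the CpG-poor limit, from the bin at 0.4 to that at 0.6.

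**Figure D1:**
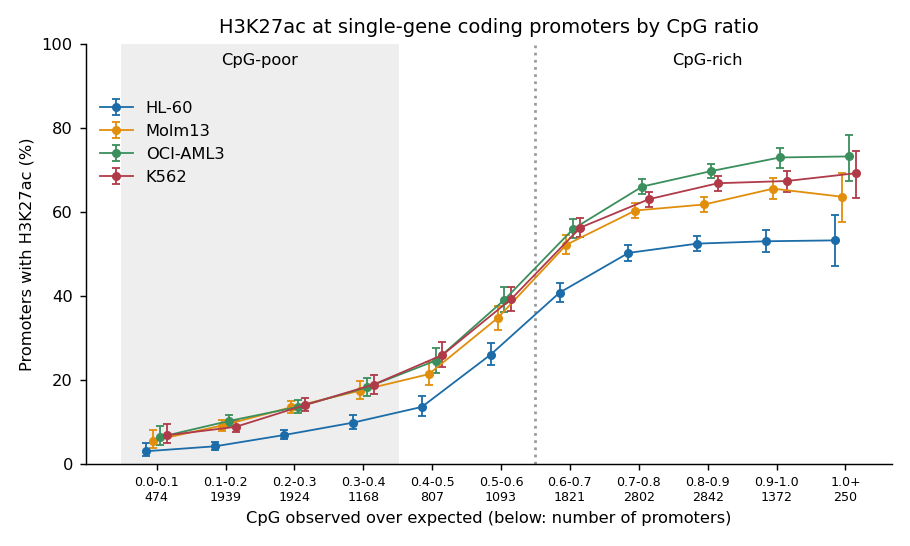
Share of single-gene coding promoters with an H3K27ac peak (y axis, %) against the CpG ratio of the promoter window in bins of 0.1 (x axis, number of promoters below each bin), 1 line per cell line, with Wilson 95% intervals over promoters. In K562 the share was 6.75% below a ratio of 0.1, 18.8% from 0.3 to 0.4 and 56.2% from 0.6 to 0.7.

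The gap between both groups was also present where their GC content was alike. Between 45 and 50% GC, 1034 CpG-poor and 271 CpG-rich promoters could be compared. There, 5.22% of CpG-poor promoters were marked in HL-60 against 57.2% of CpG-rich ones, 12.8% against 62.4% in Molm13, 12.1% against 67.2% in OCI-AML3 and 12.6% against 66.8% in K562. The intervals of the paired shares did not overlap in any line.

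Where a CpG-poor promoter was marked, its peak was weaker than those at CpG-rich promoters. The fold enrichment that the authors' peak caller gives over the local background had a median of 4.00 at marked CpG-poor promoters and 5.13 at marked CpG-rich promoters in HL-60, 5.01 and 6.19 in Molm13, 3.52 and 3.92 in OCI-AML3, and 3.36 and 3.62 in K562. Fold enrichments of different lists share no scale, so strength was also expressed as the percentile of a peak within its own list. The median percentile at CpG-poor promoters was 61.5 in the HL-60 list, 71.5 in that of Molm13, 70.0 in that of OCI-AML3 and 73.0 in that of K562, below the 78.6 to 82.2 of CpG-rich promoters. Marked CpG-poor promoters therefore lay above the middle of each list.

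The peaks also lay differently around the start. Among marked CpG-poor promoters, the 5′ end itself was inside a peak for 65.8% in the HL-60 list, and the lists of Molm13, OCI-AML3 and K562 gave 72.4%, 76.5% and 76.4%. The corresponding shares of CpG-rich promoters were 74.0%, 87.7%, 87.9% and 88.2%. At 2 kb upstream the order was turned round, with a peak at 11.8%, 22.3%, 20.7% and 23.6% of marked CpG-poor promoters, against 3.76%, 10.1%, 9.40% and 17.2% of CpG-rich ones, in the same order of lines. In both groups the maximum lay 200 or 300 bp downstream of the 5′ end.

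Peaks of at least 10 kb were found more often at marked CpG-poor than at marked CpG-rich promoters. The median width was larger at CpG-poor promoters in Molm13 (2094 against 1782 bp) and OCI-AML3 (2233 against 1957 bp). It was close in HL-60 (1316 against 1271 bp) and smaller in K562 (2507.5 against 2697.5 bp). How many of the broad peaks reached a CpG-rich start was not counted. A peak of at least 10 kb covered or touched 25 of 663 (3.77%) in Molm13, 32 of 699 (4.58%) in OCI-AML3 and 61 of 690 (8.84%) in K562, against 1.34%, 1.97% and 3.65% of marked CpG-rich promoters. The differences were 2.43 percentage points (1.18 to 4.19), 2.61 (1.23 to 4.45) and 5.19 (3.23 to 7.59). HL-60 had only 2 such members. The widest peaks were those of SRGN, which encodes the proteoglycan serglycin of secretory granules, at 59338 bp in Molm13 and 48570 bp in OCI-AML3, and that over the 5′ end of HOXA9, a homeobox gene of blood progenitors, at 57053 bp in OCI-AML3. In Molm13 a single peak of 34162 bp spanned both ELANE and PRTN3, the genes of neutrophil elastase and proteinase 3. The widest in K562 lay at HEMGN, which encodes the haematopoietic protein hemogen, with 27197 bp. In HL-60 the widest were those at TSPOAP1 (13498 bp) and MPO (12709 bp), the gene of myeloperoxidase. Several members share a peak in this way, and the 690 marked promoters of K562 corresponded to 677 distinct peaks.

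An annotated 5′ end is not always the start a cell uses. The canonical transcript of the gene began within 500 bp for 3726 CpG-poor promoters (67.7%) and for 8058 CpG-rich promoters (88.7%). Another, CpG-rich start of the same gene was annotated for 1252 CpG-poor members, of which HL-60 marked 7.91%, Molm13 18.1%, OCI-AML3 18.7% and K562 22.8%. The 4253 members without such a start were marked at 5.64%, 10.3%, 10.9% and 9.52%. Marking was thus higher beside an alternative CpG-rich start, most of all in K562. The overlapping peak itself reached a CpG-rich transcript start, of any protein-coding gene, for 53 of the members marked in HL-60 (15.6%), for 148 of those marked in Molm13 (22.3%), for 147 of those marked in OCI-AML3 (21.0%) and for 203 of those marked in K562 (29.4%). For these members the list does not tell whether the mark belonged to the CpG-poor start. Conversely, a peak at another annotated start of the same gene was found for 9.87%, 12.8%, 14.5% and 11.9% of the members with no peak in their window, in the same order of lines.

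The marked CpG-poor promoters were mostly marked in few lines. In all, 1150 carried H3K27ac in at least 1 line, which is 20.9% of the group (19.8 to 21.98%) against 51.5% of all single-gene promoters. Of these 1150, 506 (44%) were marked in 1 line, 230 in 2, 231 in 3 and 183 (15.9%) in all 4. Of the 6546 marked CpG-rich promoters, 10.5% were marked in 1 line and 63.1% in all 4. The share marked in 1 line was 33.5 percentage points higher at CpG-poor promoters (30.5 to 36.4), and the share marked in all 4 differed by -47.2 points (-49.5 to -44.7). Leaving out the short HL-60 list gave 44.9% of CpG-poor and 10.9% of CpG-rich promoters marked in 1 of the remaining 3 lines.

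The commonest combination was K562 alone, with 300 CpG-poor promoters (5.45% of the group, against 4.95% of all single-gene promoters). All 4 lines followed with 183 (3.32%, against 28.1% of all), then Molm13 with OCI-AML3 alone with 149 (2.71%, against 2.68%). The 3 AML lines without K562 marked 91 (1.65%, against 1.87%). Marks in a single AML line numbered 99 in OCI-AML3 (1.80% of the group, against 2.23% of all), 84 in Molm13 (1.53%, against 0.77%) and 23 in HL-60 (0.418%, against 0.418%). These numbers moved with the settings tried, between 56 and 97 for OCI-AML3, 44 and 77 for Molm13 and 14 and 35 for HL-60, and that of K562 alone between 166 and 242. In total 460 members were marked in at least 1 AML line and not in K562, 8.36% of the group and 8.36% of all promoters. As shares of all members, marked or not, the largest gap was thus in how few CpG-poor promoters were shared by all lines. The combination of Molm13, OCI-AML3 and K562 was also less frequent (2.20%, against 6.48% of all). Molm13 alone was more frequent than among all promoters. Among marked promoters only, K562 alone was commoner at CpG-poor (300 of 1150) than at CpG-rich promoters (383 of 6546). The same held for the 3 AML lines without K562 (91 of 1150 against 178 of 6546).

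**Figure D2:**
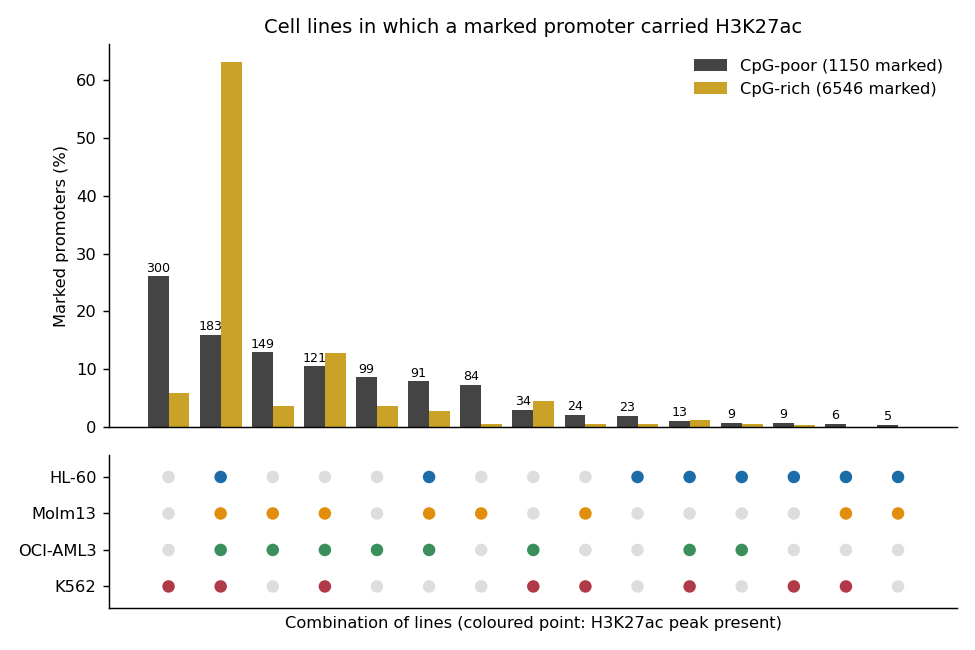
Percentage of marked CpG-poor (dark, 1150) and marked CpG-rich promoters (yellow, 6546) for each combination of lines (y axis, %), with the number of CpG-poor promoters above each bar and the lines of the combination as coloured points below. K562 alone held most CpG-poor promoters (300), whereas 63.1% of CpG-rich promoters fell in the combination of all 4 lines.

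Pairs of lines were also compared among marked promoters only. Of CpG-poor promoters marked in Molm13, 82.1% were marked in OCI-AML3 and 50.4% in K562. Of those marked in OCI-AML3, 77.8% were marked in Molm13 and 50.2% in K562. HL-60 promoters recurred in OCI-AML3 at 87.3%, in Molm13 at 84.1% and in K562 at 62.2%. Of K562 promoters, OCI-AML3 shared 50.9%, Molm13 48.4% and HL-60 30.6%, whereas for CpG-rich promoters of K562 the shares were 92.4%, 86.5% and 73.3%.

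Cell identity was checked on 24 marker genes, of which most have CpG-poor promoters. Of 6 myeloid markers, 5 were marked in HL-60, all 6 in Molm13 and OCI-AML3, and 2 in K562, namely SPI1 and CD33. All 6 erythroid markers were marked in K562 and 0 in the AML lines. No line marked any of the 4 T cell markers. Among 4 B cell markers, CD79A, a chain of the B cell receptor complex, was marked in all 4 lines, and HL-60 also marked PAX5, a transcription factor of B cells. The megakaryocyte marker ITGA2B, integrin αIIb, was marked in HL-60, Molm13 and K562, and GP9 and PF4 in no line.

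Of 31 CpG-poor promoters of neutrophil and eosinophil granule protein genes, HL-60 marked 13, Molm13 15, OCI-AML3 16 and K562 4, and 13 were unmarked in all 4 lines. The shares were 41.9%, 48.4%, 51.6% and 12.9%, beside 6.16%, 12.04%, 12.7% and 12.5% of all CpG-poor promoters. In 14 cases (45.2%, against 8.36% of all CpG-poor promoters) the mark was present in at least 1 AML line and absent from K562. Genes of azurophil granule proteins were among them, and 16 of the 18 marked promoters had their canonical start within 500 bp. MPO lay in peaks of 12709 bp in HL-60 (fold enrichment 6.86), 14058 bp in Molm13 (7.27) and 20070 bp in OCI-AML3 (4.80), each of which also reached a CpG-rich start. CTSG, which encodes the protease cathepsin G, reached 3.84, 5.23 and 4.91. PRTN3 reached 13.3 in Molm13, where the peak included a CpG-rich start, 4.25 in OCI-AML3 and 4.45 in HL-60. The neighbouring ELANE, with its canonical start 1289 bp from the annotated 5′ end, had its own peak in HL-60 (4.32) and shared those of PRTN3 in the other 2 lines. The ribonucleases RNASE2 and RNASE3 of eosinophil granules were marked in both Molm13 (6.13 and 7.46) and OCI-AML3 (4.89 and 4.98), but in HL-60 the mark was found at RNASE2 alone (3.92). CEBPE, the regulator of late granulocyte maturation, was marked in the 3 AML lines at percentiles of 90.9, 64.1 and 74.9 within the respective lists, with its canonical start over 1 kb from the annotated 5′ end.

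CAMP, which encodes the antimicrobial peptide cathelicidin of specific granules, was marked in the 3 AML lines at low percentiles of 31.3 in Molm13, 13.6 in HL-60 and 4.72 in OCI-AML3. The 13 members unmarked in all 4 lines were the defensin genes DEFA1, DEFA3 and DEFA4, the eosinophil genes EPX, PRG3 and CLC, LTF (lactoferrin), LCN2 (lipocalin 2), MMP8 and MMP9 (matrix proteases), CEACAM6, CEACAM8 and OLFM4. Of these, LTF, CEACAM6 and MMP8 had their canonical start 20329, 4553 and 2096 bp from the annotated 5′ end. SRGN was the only member of the list marked in all 4 lines, with fold enrichments of 6.14, 8.55, 5.01 and 3.80 in HL-60, Molm13, OCI-AML3 and K562. LYZ, the lysozyme gene, was marked in Molm13 (4.56), OCI-AML3 (3.56) and K562 (3.51). CRISP3 (3.72) and PRG2 (2.55), the latter the gene of eosinophil major basic protein, were marked in K562 alone.

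Of 63 CpG-poor promoters of phagocyte receptors and adaptors, HL-60 marked 19, Molm13 27, OCI-AML3 31 and K562 14. As shares these were 30.2%, 42.9%, 49.2% and 22.2%, each above the 6.16%, 12.04%, 12.7% and 12.5% of all CpG-poor promoters. None of the lines marked 27 members, and 31 of the 36 marked members had their canonical start within 500 bp. NCF4, a subunit of the phagocyte NADPH oxidase, had high fold enrichments in the AML lines (8.71, 8.58 and 5.31) and no peak in K562, and the catalytic subunit gene CYBB was marked in the same lines (4.31, 3.40 and 3.72). CSF3R, the receptor for granulocyte colony-stimulating factor, was marked in Molm13 (5.44) and OCI-AML3 (4.47). The chemokine receptor genes CCR1 and CCR2 were marked in the same pair of lines, at 6.43 and 6.48 in Molm13. ITGAM and ITGAX, integrin chains of mature phagocytes, were marked in OCI-AML3 alone (3.04 and 2.86). CD14 and CSF1R, which encode receptors of monocytes and macrophages, were unmarked in all 4 lines at the annotated 5′ end. This end lay more than 500 bp from the canonical start for CD14 and 26818 bp from it for CSF1R. CD33, a sialic acid binding receptor of myeloid cells, was marked in all 4 lines, at 3.64, 5.94, 3.48 and 2.94.

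Among 23 CpG-poor promoters of S100 proteins and inflammatory cytokines, HL-60 marked 9, Molm13 11, OCI-AML3 13 and K562 5. These shares, 39.1%, 47.8%, 56.5% and 21.7%, also lay above those of all CpG-poor promoters in each line. The calprotectin gene S100A9 was marked in the AML lines (3.61, 4.84 and 2.42), and its partner S100A8 in OCI-AML3 (2.34). OSM, the cytokine oncostatin M, had stronger peaks (4.51, 8.91 and 4.82). The tumour necrosis factor gene TNF was also marked in the 3 AML lines, at 4.84, 5.33 and 3.32. CXCL8, the neutrophil chemoattractant interleukin 8, was marked in all 4 lines (3.57, 3.95, 5.17 and 2.97). IL6 was the only member of this list marked in K562 alone, at 3.15, with its annotated 5′ end 1316 bp from the canonical start.

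Among the gene lists examined, genes used across leukocytes had the highest shares in the AML lines. Of 37 CpG-poor promoters, HL-60 marked 22, Molm13 and OCI-AML3 28 each and K562 18, and 12 were marked in all 4 lines. The shares ran from 48.6% in K562 to 75.7% in Molm13 and OCI-AML3, against at most 12.7% of all CpG-poor promoters. SPI1, the gene of the myeloid regulator PU.1, was marked in each line, with fold enrichments of 3.88 in K562, 5.96 in HL-60, 6.68 in OCI-AML3 and 10.03 in Molm13. In the order HL-60, Molm13, OCI-AML3 and K562, LAPTM5, a lysosomal membrane protein of blood cells, had 9.38, 12.2, 4.50 and 3.76. SELPLG, the selectin ligand PSGL-1, had 5.82, 7.62, 4.90 and 4.78. PTPRC, the common leukocyte antigen CD45, was marked in Molm13 (5.38), OCI-AML3 (7.25) and K562 (3.87) but not in HL-60, with the annotated 5′ end 583 bp from its canonical start. EVI2A and EVI2B, neighbouring genes within an intron of NF1, shared a peak of 14443 bp in OCI-AML3 at the percentile of 99.8. EVI2B was marked in K562 as well (3.62), whereas EVI2A was not. CD53, a tetraspanin gene, was marked in K562 alone (4.29), at a 5′ end annotated 1960 bp from its canonical start.

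The erythroid list separated K562 from the AML lines. Of 28 CpG-poor promoters, 22 (78.6%) were marked in K562 and 1 (3.57%) in each AML line, the latter being LMO2, which encodes a scaffold of blood stem cell transcription factors. The other 21 were marked in K562 alone, and 16 of the 22 marked members had their canonical start within 500 bp. GATA1, the erythroid master regulator, had a fold enrichment of 4.74 and KLF1, the erythroid Krüppel-like factor, of 3.99. RHAG, the Rh-associated glycoprotein, had the strongest peak of the list, at 5.57 over 12180 bp and the percentile of 99.8. The glycophorin genes GYPE and GYPB, which belong to a family of red cell membrane proteins, had 4.34 and 4.02. The transferrin receptor 2 gene TFR2 reached 4.46 at a 5′ end 1227 bp from its canonical start.

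Globin genes were read at their annotated 5′ ends, of which that of HBG1, a γ-globin gene of fetal haemoglobin, was the canonical start. Its peak in K562 was 21706 bp wide with a fold enrichment of 4.40, and the 5′ end of HBD, annotated 9174 bp from the canonical start of this δ-globin gene, lay in the same peak. The 5′ end of HBB, the adult β-globin gene, was annotated 2324 bp from its canonical start and had a separate peak of 1567 bp at 2.31, the percentile of 4.83. That of HBZ, the embryonic ζ-globin gene, lay 9916 bp from its canonical start and had 3.13. For HBD, HBB and HBZ the values therefore describe upstream sequence and not the usual promoter. ALAS2, the haem synthesis enzyme of red cells, had 3.05, and the pyruvate kinase gene PKLR had 2.77. AHSP, which encodes the chaperone of α-globin, SLC4A1, the anion exchanger band 3, ART4, RHEX, TRIM10 and TSPO2 were unmarked in all 4 lines. Glycophorin, globin, defensin and ribonuclease genes have near-identical copies, and only uniquely mapped reads were kept, so their peaks can be understated.

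Of the 22 CpG-rich promoters of the erythroid list, K562 marked 15 (68.2%), HL-60 and Molm13 marked 9 each (40.9%) and OCI-AML3 marked 11 (50%). All CpG-rich promoters were marked at 63.7% in K562 and at 49.5%, 60.01% and 66.4% in HL-60, Molm13 and OCI-AML3. With 22 promoters and no interval computed, no difference from these shares is read.

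Of 19 CpG-poor megakaryocyte and platelet promoters, HL-60 marked 3, Molm13 and OCI-AML3 4 each and K562 5, shares of 15.8%, 21.1%, 21.1% and 26.3% that lay above those of all CpG-poor promoters. P2RX1, an ATP-gated channel, was the one marked in all 4 lines (5.82, 7.18, 4.52 and 3.04), and GP6, the platelet collagen receptor, and TUBB1, a platelet tubulin, were marked in K562 alone (3.59 and 3.74). Of 38 B and T cell promoters, 3, 5, 5 and 6 were marked in HL-60, Molm13, OCI-AML3 and K562, or 7.89%, 13.2%, 13.2% and 15.8%, near the 6.16%, 12.04%, 12.7% and 12.5% of all CpG-poor promoters. In HL-60 these included CD79A (3.32) and KLRK1 (2.94), the latter 1833 bp from its canonical start. The 26 unmarked members included LCK and ZAP70, kinases of T cell receptor signalling, and the granzyme genes GZMA, GZMB and GZMK.

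**Figure D3:**
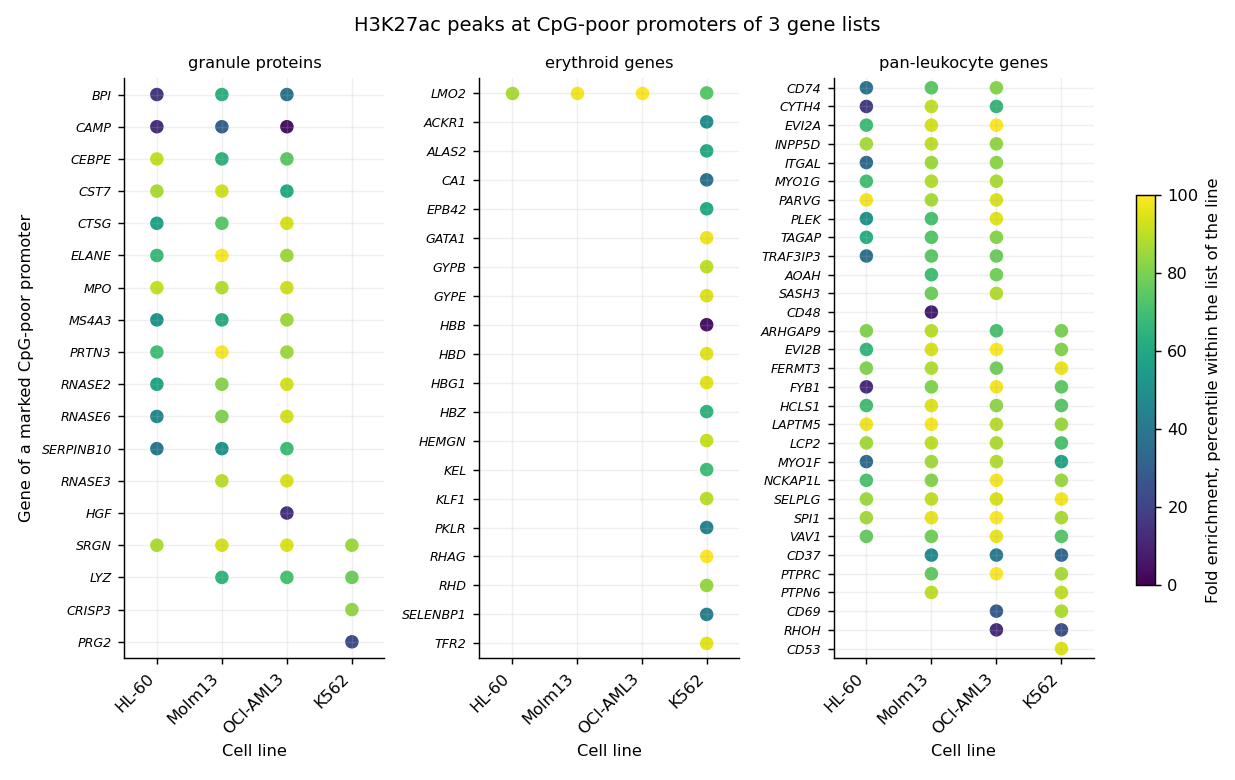
Marked CpG-poor promoters of 3 gene lists (rows, with 20 of the 22 erythroid ones drawn) in each cell line (x axis), with a point where a peak was present, coloured by the percentile of its fold enrichment within the list of that line. The erythroid genes drawn, other than LMO2, had points in K562 alone, and 16 of 18 granule genes had points in OCI-AML3.

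The strongest peaks at promoters marked in K562 alone lay at EEF1A1 (5.75), RHAG (5.57), GALNT5 (5.42), OBSL1 (5.39) and DUSP13 (5.08). EEF1A1, the gene of a translation elongation factor, has its canonical start 4555 bp from the annotated 5′ end, and the peak of 10473 bp reached a CpG-rich start. The peaks at OBSL1 and DUSP13 also reached such a start, whereas GALNT5, a glycosyltransferase gene, had its canonical start at the 5′ end and a peak of 14213 bp without a CpG-rich start. HRC (4.93), a calcium-binding protein gene of the sarcoplasmic reticulum, and MACC1 (4.88), a regulator of MET, likewise had a canonical start within 20 bp and no CpG-rich start in the peak. Of the 300 promoters marked in K562 alone, 233 (77.7%) had a peak without a CpG-rich start, and 166 (55.3%) had their canonical start within 500 bp.

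In HL-60 alone, the strongest peaks lay at TRIM39-RPP21 (8.35) and the clock gene PER2 (7.72), both with a CpG-rich start in the peak, followed by MZB1 (6.08) and PTPRCAP (6.001) without one. MZB1 encodes a chaperone of immunoglobulin assembly in B cells and PTPRCAP a partner of CD45 in lymphocytes. IGLL1 (4.88), a surrogate light chain of B cell precursors, and the chemokine CCL4 (4.78) were among the 10 highest as well.

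In Molm13 alone, FIZ1 (12.6), MPV17 (9.58), ARHGAP45 (8.70), LRRC37A (8.69) and BBC3 (8.56) led, all with a canonical start more than 1 kb away. OR4M1 (6.54), an olfactory receptor gene, was the only 1 of the 10 highest whose canonical start was the annotated 5′ end. In OCI-AML3 alone the strongest were CDC42EP3 (6.32, with the canonical start 66826 bp away), an unnamed gene (ENSG00000273088, 4.66), DENND3 (4.63) and IL31RA (4.35). IL31RA, a subunit of the interleukin 31 receptor, had its canonical start at the 5′ end and a peak of 7210 bp. Of promoters marked in OCI-AML3 alone, 90 of 99 had a peak without a CpG-rich start.

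Among the 91 promoters marked in the 3 AML lines and not in K562, 80 (87.9%) had a peak without a CpG-rich start and 69 (75.8%) their canonical start within 500 bp. By mean percentile, the highest were ARHGEF18, NCF4, LAIR1, C16orf54 and PARVG. Their fold enrichments in HL-60 lay between 6.82 (LAIR1) and 9.67 (PARVG), those in Molm13 between 6.83 (PARVG) and 11.4 (C16orf54), and those in OCI-AML3 between 4.22 (C16orf54) and 5.76 (ARHGEF18). ARHGEF18 encodes an activator of RhoA, LAIR1 an inhibitory collagen receptor of leukocytes and PARVG the leukocyte adhesion protein γ-parvin. MPO and EVI2A were among the 10 highest too. In Molm13 and OCI-AML3 alone, the list was led by ADPGK, ZC3H12D, LY86, HSH2D and WDR49. LY86 encodes MD-1, the partner of a Toll-like receptor homologue, with 10.8 in Molm13 and 5.37 in OCI-AML3.

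Promoters marked in all 4 lines fell into both kinds of start. Of 183, 130 (71.0%) had a peak without a CpG-rich start in every line. Among the 10 with the highest mean percentile, ST7L, IREB2, ACBD5, HDLBP and S100PBP had a canonical start more than 500 bp away and a CpG-rich start within the peak of at least 3 lines. TSPOAP1, which lies near MPO on chromosome 17, PTPN7, a phosphatase of blood cells, and TNFRSF1A, the receptor for tumour necrosis factor, had none. PTPN7 reached 9.12, 14.9, 5.94 and 4.50 in HL-60, Molm13, OCI-AML3 and K562. TNFRSF1A reached 9.21, 9.87, 5.27 and 4.42 in the same order.

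In 6 of the gene families examined, most of them used outside blood cells, marks were few. Olfactory receptors provided 394 CpG-poor promoters, of which HL-60 marked 2, Molm13 5, OCI-AML3 6 and K562 4. Keratins and keratin-associated proteins of skin and hair provided 135, of which 3 were marked, all in K562 (KRT8, KRT13 and KRT15, of which KRT13 alone had its canonical start within 500 bp). Among 30 late cornified envelope and small proline-rich proteins of the epidermis, SPRR3 was marked in HL-60 (3.53). The 40 β-defensins and 17 type I interferons had 0 marked promoters in any line. Where such families hold near-identical copies, peaks can be understated, since only uniquely mapped reads were kept. TAS2R40 in Molm13 (5.09) and TAS2R31 in K562 (2.57) were the marked members of 23 bitter taste receptors. Together these 6 families held 639 promoters, 11.6% of the CpG-poor group, with 17 marked in any line (2.66%, interval 1.67 to 4.22%), against 1133 of the other 4866 (23.3%, 22.1 to 24.5%). The 6 were selected from the gene lists. Lists outside this sum had higher shares marked in any line, such as liver secretory genes (19.0%) and serpins (12.5%). Without the 6 families, HL-60 marked 6.91% of CpG-poor promoters, Molm13 13.5%, OCI-AML3 14.2% and K562 14.02%.

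Of 42 CpG-poor promoters of liver secretory genes, 8 were marked in any line (19.0%), near the 20.9% of all CpG-poor promoters. At the annotated 5′ ends, ALB, the apolipoprotein gene APOA1 and the fibrinogen genes FGA, FGB and FGG were unmarked. APOC2, in a cluster of apolipoprotein genes, was marked in HL-60 (4.78), Molm13 (8.16) and OCI-AML3 (4.10). Its neighbour APOC1 was marked in these lines (3.44, 8.75 and 4.15) and in K562 (4.15), and APOE in K562 alone (3.62).

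Short sequence motifs known to be bound by lineage factors were counted in the 300 bases from 250 before to 50 after the 5′ end, on both strands. A match describes the letters and is not evidence of binding. GAGGAAGT, the core recognised by PU.1, was present at 2.41% of all single-gene promoters and at 3.23% of CpG-poor ones. It was found at 11 of the 91 CpG-poor promoters marked in the 3 AML lines and not in K562 (12.1%, 6.89 to 20.4%), at 10.7% of those marked in Molm13 and OCI-AML3 alone and at 9.84% of those marked in all 4 lines. Unmarked CpG-poor promoters had it at 2.59%. Of the 300 promoters marked in K562 alone, 2 held it (0.667%), MESP2 and PTPRH. The share at promoters marked in at least 1 AML line and not in K562 was 7.83%, which was 7.16 percentage points above that of K562 alone (4.42 to 10.0). Where the canonical start lay within 500 bp, the shares were 9.15% and 0.602%.

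The PU.1 motif and its flanks are shown for genes marked in the 3 AML lines, with the motif in capitals, 9 bases on each side and the strand of the run as printed.
NCF4, chr22:36860942-36860967, plus strand: gtgaggtaaGAGGAAGTgtgggccac
NCF4, chr22:36860905-36860930, minus strand: acagaaattGAGGAAGTggaccctcg
PRTN3, chr19:840902-840927, plus strand: aggcaaaagGAGGAAGTggggaccca
CEBPE, chr14:23120263-23120288, minus strand: acctcacaaGAGGAAGTagacccaag
ITGAL, chr16:30472611-30472636, minus strand: gggttcaggGAGGAAGTgtaagcaag
TLR9, chr3:52225638-52225663, plus strand: cagagaataGAGGAAGTaagattttt
NCF4 held the motif on each strand. In PRTN3 it began 88 bases before the 5′ end, in CEBPE 23 bases and in ITGAL, the gene of an integrin chain of leukocytes, 38 bases before it, and in TLR9, a Toll-like receptor gene, 9 bases before it.

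AGATAA, the core recognised by GATA factors, was more frequent at all CpG-poor promoters (17.4%) than at all single-gene promoters (9.57%). CpG-poor windows have less G and C, and the part of this in the difference was not tested. Within the CpG-poor group it was found at 69 promoters marked in K562 alone (23%, 18.6 to 28.1%) and at 14.6% of those marked in at least 1 AML line and not in K562. The difference was -8.43 percentage points (-14.3 to -2.80), AML minus K562. Unmarked CpG-poor promoters had it at 17.7%. Of the 21 erythroid promoters marked in K562 alone, CA1 was left out of this count. Among the others, 11 held the word, and 3 of these are shown.
ALAS2, chrX:55031090-55031113, plus strand: ccttgctagAGATAAaacccaaag
PKLR, chr1:155301455-155301478, minus strand: gtctcccttAGATAAgaccagcag
GATA1, chrX:48786296-48786319, minus strand: ctgaaaccaAGATAAatgaaaata
The word lay 31 bases before the 5′ end in PKLR.

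TGTGGT, the RUNX core, was present at 24.1% of the promoters of the AML group and at 60 of the 300 of K562 alone, a difference of 4.13 points whose interval included 0 (-1.995 to 9.96). Among all CpG-poor promoters 19.3% held it, among unmarked ones 18.6% and among all single-gene promoters 12.8%. TATAAA on the strand of the gene, from 45 to 16 bases before the 5′ end, was present at 6.92% of CpG-poor and 1.69% of CpG-rich promoters. Among CpG-poor promoters, unmarked ones held it at 7.90% and marked ones at 3.22%, a difference of 4.68 points (3.27 to 5.89). Marked and unmarked members therefore differed in a feature that the choice of promoters had not used.

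A further list, of dCas9 peaks in K562 cells that carried 4 sgRNAs against LTR2B, a family of retroviral long terminal repeats, touched 6 CpG-poor promoters, against 0.188% of all single-gene promoters. As a share, 6 of 5505 is 0.109%.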

How the data were processed

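H3K27ac was measured by ChIP-seq in 4 leukaemia cell lines and dCas9 in 1 of them. Peak lists of 5 samples were used, and the other 14 of 19 samples were not analysed here. Samples were grouped by their titles. Following the methods text, reads were trimmed by the authors with Trim Galore (0.4.5 in the submitters' processing notes), aligned to hg38 with Bowtie2 (2.3.4 in those notes, which differs from the methods text) and filtered for unique mapping. Peaks were called with MACS2 2.1.1 at q 0.05, and the broad option was set for histone marks. The control given to the caller is not given in the sources used here. The deposited lists hold for each peak its −log10 p-value and −log10 q-value, a score that the caller derives from the latter, and the ratio of its signal to the local background, called fold enrichment. The largest q-values in the H3K27ac lists lay above 0.05.

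From these lists and the GENCODE 44 annotation, overlap of at least 1 bp with the promoter windows was computed. Fold enrichment was used within a list only, and where several peaks touched a window the one with the highest fold enrichment gave the values. Shares carry Wilson and differences Newcombe 95% intervals over promoters. Sequence was read from hg38, and motifs were counted as exact matches. Read numbers were not in the lists, so depth and the precision it gives were unknown. With 1 library per group no test was made. The members and gene lists were chosen with earlier results of these data known. Genes were named by rule: per line, the 10 promoters marked in that line alone with the highest fold enrichment; the 10 with the highest mean percentile among those marked in all 4 lines, in the 3 AML lines without K562, and in Molm13 and OCI-AML3 alone; marked members of the gene lists; and members with a dCas9 peak. Unmarked list members, the widest peaks, the promoters nearest the limit and the motif examples were chosen after their values were seen. Some genes and sequences that these rules name are not reported here. Overlap code was tested on simulated data and gave the counts of bedtools 2.31.1. Python 3.11.15, NumPy 2.4.6, pandas 2.3.3, statsmodels 0.14.6, pysam 0.24.0, matplotlib 3.10.9 and samtools 1.23.1 were used. Alternatives covered the q-value limit, list length, overlap, CpG limit, choice of start and neighbouring genes.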

Additional observations from a re-analysis of the deposited data

Results flagged for a closer look

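The dCas9 list of K562 cells carrying 4 sgRNAs against LTR2B lies outside the H3K27ac measurement, and it held peaks at 6 CpG-poor promoters. This is 0.109% of the 5505 (Wilson 95% interval 0.04996 to 0.238%), where 0.188% of all single-gene promoters and 0.253% of CpG-rich ones (23 of 9087, 0.169 to 0.380%) had such a peak. The dCas9 list of the empty vector was not analysed here. The fold enrichments of dCas9 were 13.04 at UGT2B7, a glucuronidation enzyme of the liver, 11.7 at ART1, an ADP-ribosyltransferase, 10.99 at NLRP6, an innate immune sensor, 8.50 at APOC1, 8.37 at RHEX, a regulator of erythroid expansion, and 6.90 at MYOCOS. In the H3K27ac lists, APOC1 was marked in all 4 lines and NLRP6 in Molm13 (3.01) and K562 (3.60), while the other 4 promoters were marked in none.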

How the results depend on the processing

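Shares of CpG-poor promoters are given in the order HL-60, Molm13, OCI-AML3 and K562, with the difference from CpG-rich promoters in percentage points and the number marked in all 4 lines. A q-value below 0.001 gave 3.54%, 8.99%, 10.1% and 8.96%, differences of 37.1, 43.9, 51.4 and 47.6, and 96 promoters. Cutting each list to its 20733 strongest peaks gave 9.74%, 9.30% and 9.57% in the 3 longer lists, with differences of 46.5, 48.6 and 48.6. An overlap of 50% of the window gave 3.78%, 8.41%, 9.48% and 9.30%, differences of 31.5, 43.6, 48.5 and 46.7, and 99 promoters. The 4337 promoters with a CpG ratio below 0.3 gave 5.19%, 10.6%, 11.2% and 10.8%, differences of 49.4, 55.2 and 52.8 in the longer lists, and 113 promoters. Starts of canonical transcripts gave 7.07% in HL-60, and 11.4% with a difference of 53.4 in K562. Promoters with no other coding start within 5 kb gave 5.35%, 10.7%, 11.2% and 10.6%. The remaining settings were chosen after seeing the data. Peaks without a CpG-rich start gave 5.20%, 9.36%, 10.0% and 8.85%, and members with the canonical start within 500 bp gave 10.6%, 11.5% and 9.96% in the longer lists and 113 promoters. Each setting changes the peaks or promoters counted, and beyond that the cause was not tested. Of 96 values under these settings, 55 moved beyond their interval or by over 1.5 times, 41 did not and 0 changed sign, so that the CpG-rich share exceeded the CpG-poor share in each line under every setting for which it was computed. The number marked in K562 alone lay between 166 and 242 under these settings, against 300, and that of OCI-AML3 alone between 56 (equal list length) and 97, against 99. Molm13 alone gave 44 (canonical start within 500 bp) to 77, against 84, with 50 at a q-value below 0.001. HL-60 alone gave 14 (q-value below 0.001, or an overlap of 50%) to 35 (equal list length), against 23. No paired analysis was possible because only 1 library stood for each cell line, and for the same reason no replicate could be left out. Depth was unknown, and an unmarked promoter may carry the mark below what the caller detects.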

Other observations

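Zinc finger genes with ZNF symbols, which encode DNA-binding repressors used in many tissues, have mostly CpG-rich promoters. Of 419 single-gene promoters of this family, 41 were CpG-poor and 296 CpG-rich. Among the 41, HL-60 marked 3, Molm13 8, OCI-AML3 7 and K562 10. In all, 14 were marked in any line (34.1%, against 20.9% of all CpG-poor promoters), and 15 had their canonical start within 500 bp. Of the 296 CpG-rich promoters, 187, 199, 220 and 215 were marked in the same order. ZNF579 was marked in all 4 lines (3.39, 5.89, 3.34 and 4.19) with its canonical start at the annotated 5′ end.

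Of 24 CpG-poor promoters of serpins, a family of protease inhibitors, 3 were marked (12.5%, against 20.9% of all CpG-poor promoters). SERPINB10, a serpin of bone marrow cells with 1 CpG in its window, was marked in HL-60 (3.34), Molm13 (3.86) and OCI-AML3 (3.47) and not in K562. SERPINA1, the gene of α1-antitrypsin, was marked in OCI-AML3 alone (3.10), with its canonical start 2091 bp from the annotated 5′ end. SERPINF1, which encodes the secreted serpin PEDF, was marked in Molm13 (3.80), OCI-AML3 (2.74) and K562 (4.21). Among 9 cystatins, CST7, the gene of cystatin F in blood cells, was marked in HL-60 (6.06), Molm13 (8.29) and OCI-AML3 (3.21), and the other 8 in no line. Histone genes had 2 CpG-poor promoters, the oocyte and testis linker histones H1-8 and H1-7, and both were unmarked. Of the 50 CpG-rich histone promoters, HL-60 marked 25, Molm13 29, OCI-AML3 31 and K562 26.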
